A study of Mus musculus with 14 samples.

Results

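The 7 genes Arid1b, Jdp2, Atp1b2, Syngr1, Fnbp1, Cat and Hspb8 make up the subject of these results. They belong to the genes that the study lists as joined to a SIM2 binding site by a published map of chromatin loops (ChIA-PET for RNA polymerase II in mouse ES cells) and as changed in expression by SIM2. The other genes of that list are not described here, and neither loops nor expression were measured in the files used. The 7 are among 22380 protein-coding genes of GENCODE vM1. Their links lead to 9 SIM2 sites, while 197 further sites are linked to other genes and 1023 to none, out of 1229 SIM2 sites in all. The genes were selected on the loops, on expression changes and on the SIM2 peaks of these same libraries, so the SIM2 values below are a description and carry no test.

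All cells were mouse ES cells grown without tetracycline for 26 h before ChIP-seq. A6, B8 and C4 are 3 clones that carry Sim2 with a FLAG tag, driven from a tetracycline-controlled CMV promoter and followed by the Venus reporter, so SIM2 is overexpressed. EB3, the parental EBRTcH3 line, has the Venus reporter but no Sim2-FLAG. Each line gave 1 culture for FLAG ChIP. The NANOG, OCT4, MED1 and MED12 lists used here come from 1 library each of clone A6, for 8 peak lists in all. The study also ran these ChIPs in EB3 cells, and those are not described here. The endogenous SIM2 protein carries no tag and was not measured.

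SIM2 is a transcription factor of the bHLH-PAS family. It binds DNA as a dimer with ARNT. NANOG and OCT4 hold ES cells in the pluripotent state, and MED1 and MED12 are subunits of Mediator, the complex that connects factors bound at enhancers with RNA polymerase II. ChIA-PET detects DNA segments that are brought together around a chosen protein, so a site can be linked to a gene far away or on another chromosome.

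The lists held 2387 peaks in A6, 2137 in B8, 631 in C4, 81 in EB3, 14815 for NANOG, 2532 for OCT4, 762 for MED1 and 1071 for MED12. If tag counts were scaled to 10 M (megatags), the libraries held between 12.9 and 31.5 M tags. C4 gave far fewer peaks than A6 and B8, and a missing C4 peak was read as not detected in that library. Levels were compared within a list only, as the percentile in its own list of the normalized tag count, a signal given by the authors. Outside A6 and EB3 this signal is not simply the tags of the peak scaled to library size. In B8, for example, peaks of 11 tags had values of 1.4 at Cat site 2, 3.4 near Cat and 4.1 near Fnbp1.

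Sequence windows of 200 bp around the site centres (mm9, plus strand) were searched on both strands for 5 short motifs. The letters ACGTG are the core of the element that ARNT dimers bind. The E-box searched was CACGTG, and each of its matches also counts as the ARNT core. The octamer core known from OCT4 targets was searched as ATGCAAA. The core that SOX proteins bind was searched as CATTGT. The letters GGGTGTG stand for an element of the KLF kind. Capitals mark the matches. These 5 windows are printed, since they hold the matches of the Atp1b2, Hspb8 and Syngr1 sites and show the neighbouring pair of Jdp2 sites, of which 1 has a NANOG peak. They lie at chr11:69395441-69395640 (Atp1b2), chr5:116858061-116858260 (Hspb8), chr15:80049790-80049989 (Syngr1), chr12:86961079-86961278 (Jdp2 site 1) and chr12:86962163-86962362 (Jdp2 site 2).
Atp1b2: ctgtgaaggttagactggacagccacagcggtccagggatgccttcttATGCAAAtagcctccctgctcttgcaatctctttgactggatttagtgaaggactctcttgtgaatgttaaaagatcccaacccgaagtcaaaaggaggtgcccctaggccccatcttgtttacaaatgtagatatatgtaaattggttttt
Hspb8: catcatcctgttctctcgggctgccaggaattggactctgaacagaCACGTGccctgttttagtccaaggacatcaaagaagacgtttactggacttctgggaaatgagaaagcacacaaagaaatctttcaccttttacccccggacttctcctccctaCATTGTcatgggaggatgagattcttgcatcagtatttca
Syngr1: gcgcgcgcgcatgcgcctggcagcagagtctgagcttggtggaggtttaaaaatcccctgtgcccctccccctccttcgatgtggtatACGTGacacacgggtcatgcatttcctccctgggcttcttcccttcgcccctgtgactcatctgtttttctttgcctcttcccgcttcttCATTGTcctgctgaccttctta
Jdp2 site 1: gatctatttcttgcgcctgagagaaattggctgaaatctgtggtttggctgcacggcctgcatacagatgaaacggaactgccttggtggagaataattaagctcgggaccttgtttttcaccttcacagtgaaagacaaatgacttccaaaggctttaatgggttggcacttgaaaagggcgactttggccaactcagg
Jdp2 site 2: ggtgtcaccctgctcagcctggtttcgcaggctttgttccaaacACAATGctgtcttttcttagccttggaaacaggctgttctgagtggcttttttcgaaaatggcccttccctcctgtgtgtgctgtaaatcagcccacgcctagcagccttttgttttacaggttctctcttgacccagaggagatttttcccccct

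The Hspb8 window held the E-box, with its first base 53 bp before the site centre. The Syngr1 window held ACGTG 11 bp from the centre, the closest ARNT core among the 9 windows. ACGTG was thus present in 2 of 9 windows, beside 14.1% of the 1229 SIM2 site windows and 9.36% of 2458 windows placed 10 kb to either side. CACGTG was in 1 of 9, beside 2.20% of all SIM2 sites and 2.52% of the windows 10 kb away.

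The octamer core occurred in the Atp1b2 window alone, 51 bp from the centre, beside 18.6% of all SIM2 sites and 3.95% of the windows 10 kb away. That site was also the only one of the 9 with an OCT4 peak. CATTGT was in 4 of 9 windows (Hspb8, Syngr1, Jdp2 site 2 and Cat site 2), beside 19.9% and 11.4%, and GGGTGTG was in none of the 9, beside 9.85% and 3.91%. No motif of the 5 was found in the windows of Arid1b, Fnbp1, Cat site 1 and Jdp2 site 1, that is 4 of 9, beside 50.6% of all SIM2 sites. GC content ran from 44.0% (Arid1b) to 56.5% (Fnbp1), around the median of 47.5% over all SIM2 sites. A match is a description of the letters in the window.

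The 9 sites lay at very different distances from the genes they are linked to. Of these, 3 were inside the linked gene, namely the Fnbp1 site in intron 6 and both Jdp2 sites in intron 2. The Hspb8 site lay 340 bp past the end of the gene. The Atp1b2 and Arid1b sites lay 17698 and 45752 bp outside the gene body, and the Syngr1 site 99958 bp outside it. The latter was just inside the limit of 100 kb used here. Both Cat sites were on chromosome 18, while Cat is on chromosome 2.

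In 5 of the 9 cases the linked gene also had the nearest protein-coding start to its site. The Atp1b2 site lay in intron 1 of Trp53, 1633 bp from the nearest transcript start of that gene, which encodes the p53 tumour suppressor. Each Cat site lay upstream of the transcript start of Zfp532 nearest to it, by 1280 bp and 252 bp, and the starts differ. Zfp532 is a zinc finger gene, and the second site was in 1 of its promoters (1000 bp before to 300 bp after a start). Smcr7l had the start nearest to the Syngr1 site, at 14621 bp, and the starts of Mgat3, a glycosyltransferase gene, and Tab1, whose product activates the TAK1 kinase, lay between that site and Syngr1.

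Across the 9 sites every one had a peak in A6 and in B8, beside 98.9% and 96.7% of all SIM2 sites. A site needed a peak in at least 2 of the 3 clones, so these high shares follow largely from the rule. Peaks in all 3 clones were found at 3 of 9, where 28.2% of all SIM2 sites had them. The 3 were the sites of Atp1b2 and Hspb8 and Cat site 1. No EB3 peak lay close to any of the 9, the nearest being 1957268 bp from the Fnbp1 site. Sites within 100 bp of an EB3 peak centre had been dropped, and the EB3 list held only 81 peaks, so this too follows largely from the rule and the short list. SIM2 percentiles of the 9 sites ran from 22.9 to 98.2 in A6 (median 77.9), from 0.257 to 98.2 in B8 (median 76.5) and from 1.03 to 94.4 in the 3 C4 peaks, beside medians over all SIM2 sites of 70.2, 65.5 and 59.4.

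**Figure D1:**
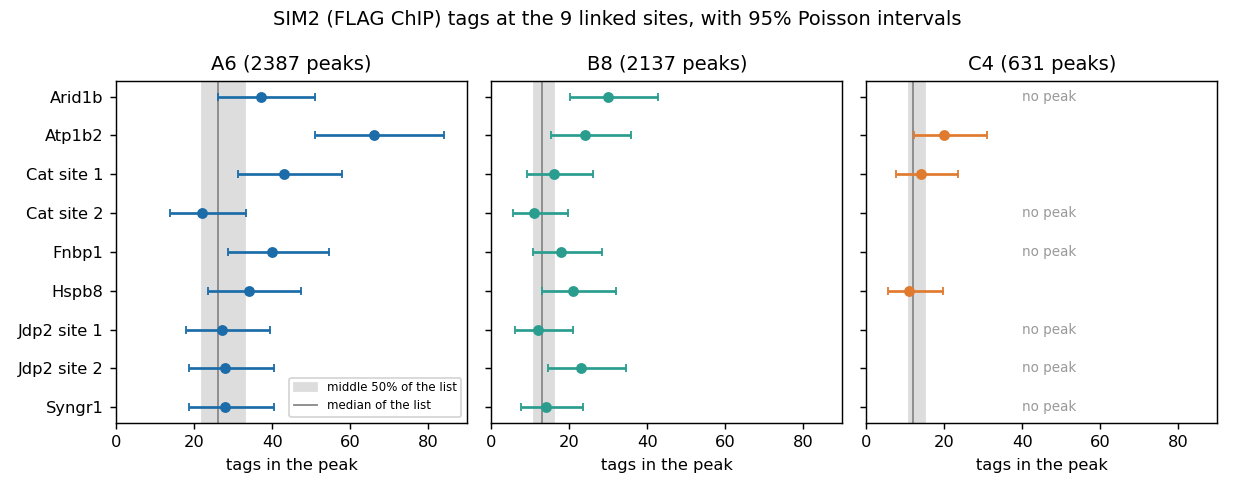
Tags in the SIM2 peak (x axis) at each linked site (y axis) in the clones A6, B8 and C4. Points are single libraries, bars 95% Poisson intervals for counting error only, and grey bands the middle 50% of each list. The Atp1b2 site stood highest in A6 with 66 tags, and 6 sites had no C4 peak.

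Among the regulators of chromatin and transcription, Arid1b encodes a DNA-binding subunit of the BAF (SWI/SNF) remodelling complex. Its linked site (chr17:4948530-4948630) held 37 tags in A6 (95% Poisson interval 26.1 to 51.0) at 10.44 times the input, and 30 tags in B8 (20.2 to 42.8) at 12.76 times. The B8 peak was at percentile 98.2 and the A6 peak at 82.8, so the site ranked high in both clones, and C4 had no peak there. A NANOG peak of 35 tags (percentile 84.6) lay 58 bp from its centre, and OCT4, MED1 and MED12 had none.

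Arid1b had a second SIM2 site that is not linked to it, in all 3 clones (chr17:5405184-5405284), 410902 bp from the gene start and 57578 bp past its end. The A6 list had 43 tags there, B8 had 22 and C4 had 13, with no factor peak. The A6 tags there were thus above the 37 of the linked site, within the counting error of the latter. Within 100 kb of the gene body Arid1b had 7 NANOG peaks and no OCT4, MED1, MED12 or EB3 peak. The NANOG percentiles ran from 4.71 to 84.6, and the highest was the peak at the linked SIM2 site.

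Jdp2 encodes a bZIP protein that pairs with Jun and represses AP-1 targets. Its site 1 (chr12:86961128-86961228) held 27 tags in A6 and 12 in B8, at percentiles 55.2 and 30.3. Site 2 (chr12:86962212-86962312) held 28 tags in A6 (percentile 60.1) and 23 in B8 (percentile 98.2). In both clones the Poisson intervals of the pair overlapped. A NANOG peak of 15 tags (percentile 38.6) lay 43 bp from site 2, and the nearest to site 1 was 1127 bp away. These 2 sites and 1 further NANOG peak, 14563 bp from the gene start, made up all the peaks within 100 kb of Jdp2.

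Among the membrane proteins, Atp1b2 encodes a beta subunit of the sodium-potassium ATPase. Its site (chr11:69395490-69395590) held 66 tags in A6 (51.0 to 84.0), 24 in B8 (15.4 to 35.7) and 20 in C4 (12.2 to 30.9), at percentiles 98.2, 94.2 and 94.4. It was the only linked site above percentile 90 in all 3 clones. It was also the only 1 of the 9 with all 4 factors. NANOG had 72 tags (percentile 99.1), OCT4 95 tags (rank 5 of 2532 peaks), MED1 22 tags (percentile 53.5, or 78.4 by tags) and MED12 20 tags (percentile 45.9, or 66.9 by tags). The SIM2, NANOG and OCT4 peaks were thus near the top of their lists, and the Mediator peaks were not.

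The region around Atp1b2 held 3 NANOG, 3 OCT4, 2 MED1 and 2 MED12 peaks. It also held 15 other protein-coding genes, where the regions of the other members held 1 to 6. Peaks there were counted by distance and not assigned to Atp1b2. A second place with all 4 factors lay 98173 to 98249 bp upstream of the gene start, without a SIM2 peak in any clone. There MED12 had 48 tags (percentile 98.0) and MED1 35 tags (percentile 81.7), both above their tags at the SIM2 site. OCT4 had 43 tags and NANOG 59, both below their tags at the SIM2 site. The Poisson intervals of both places overlapped for MED1 and NANOG, but not for MED12 and OCT4. Another place, 41377 bp downstream of the start, held NANOG and OCT4 only. A6 alone had a peak inside Atp1b2, 5509 bp from its start, of 20 tags, the lowest number in the A6 list.

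Syngr1 encodes synaptogyrin, a protein of synaptic vesicles. Its linked site (chr15:80049839-80049939) held 28 tags in A6 (percentile 60.1) and 14 in B8 (percentile 76.5), and none of the 4 factors. The nearest NANOG peak was 994 bp away. Another NANOG peak, of 13 tags, lay in the promoter of Syngr1, 268 bp upstream of the gene start. An A6 peak found in that clone alone lay 80998 bp downstream of the start, with 24 tags.

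Fnbp1 encodes an F-BAR protein that bends membranes and acts with the actin machinery in endocytosis. Its linked site (chr2:30916413-30916513) held 40 tags in A6 (percentile 86.3) and 18 in B8 (percentile 65.5). No factor peak lay within 100 bp, and the nearest NANOG peak was 448 bp off. A second SIM2 site, 21688 bp upstream of the start and not linked to Fnbp1, held 21 tags in A6 and 12 in B8 and had a NANOG peak of 32 tags. The linked site without NANOG had more tags than the other in A6 and in B8, with overlapping Poisson intervals in both. Fnbp1 had 9 NANOG peaks, the highest count of the 7 genes, in a window of 315.8 kb. Per 100 kb of window it had 2.85, below the 3.27 of Hspb8. The strongest of its peaks had 56 tags. Its OCT4 peak, of 24 tags, lay 73267 bp downstream of the start at 1 of these NANOG peaks.

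Among the genes of stress defence, Cat encodes catalase, which breaks down hydrogen peroxide. Its site 1 (chr18:65738554-65738654) held 43 tags in A6, 16 in B8 and 14 in C4, at percentiles 89.3, 65.5 and 94.4 (68.3 by tags in C4). Site 2 (chr18:65741878-65741978) held 22 tags in A6 and 11 in B8, at percentiles 22.9 and 0.257, so it was the weakest of the 9 in both clones. In B8 11 tags is the lowest number in the list, and by tags its percentile was 13.8. Neither site had a factor peak within 100 bp, and the nearest NANOG and OCT4 peaks to site 1 lay 865 and 827 bp away. Around Cat itself there was no SIM2 site in 2 clones. A single B8 peak of 11 tags lay 26064 bp upstream of the gene start, and 1 NANOG peak of 19 tags lay 124355 bp downstream of it.

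Hspb8 encodes a small heat shock protein that works with Bag3 in clearing misfolded proteins. Its site (chr5:116858110-116858210) held 34 tags in A6 (percentile 77.9), 21 in B8 (percentile 94.2) and 11 in C4. In C4 the normalized tag count of 2.2 gave percentile 1.03, but the 11 tags gave 18.6, so the 2 measures place that peak differently. A NANOG peak of 26 tags (percentile 77.6) lay 17 bp from the centre. Hspb8 had 7 NANOG peaks within 100 kb, and the strongest by percentile stood at 88.0. A B8 peak of 16 tags, found in that clone alone, lay 26589 bp from the start beside another NANOG peak.

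**Figure D2:**
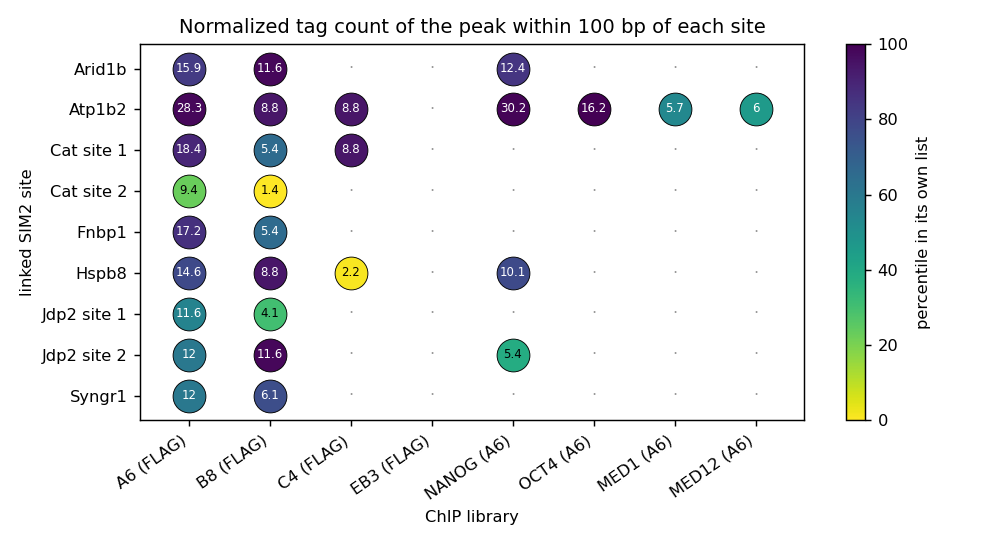
Normalized tag count (number in each circle) and its percentile in the library's own list (colour) for the peak within 100 bp of each linked site (y axis) in each of the 8 ChIP libraries (x axis), where a dot stands for no peak. The Atp1b2 site had a circle in every library except EB3, and Cat sites 1 and 2, Fnbp1, Jdp2 site 1 and Syngr1 had circles in SIM2 libraries only.

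**Figure D3:**
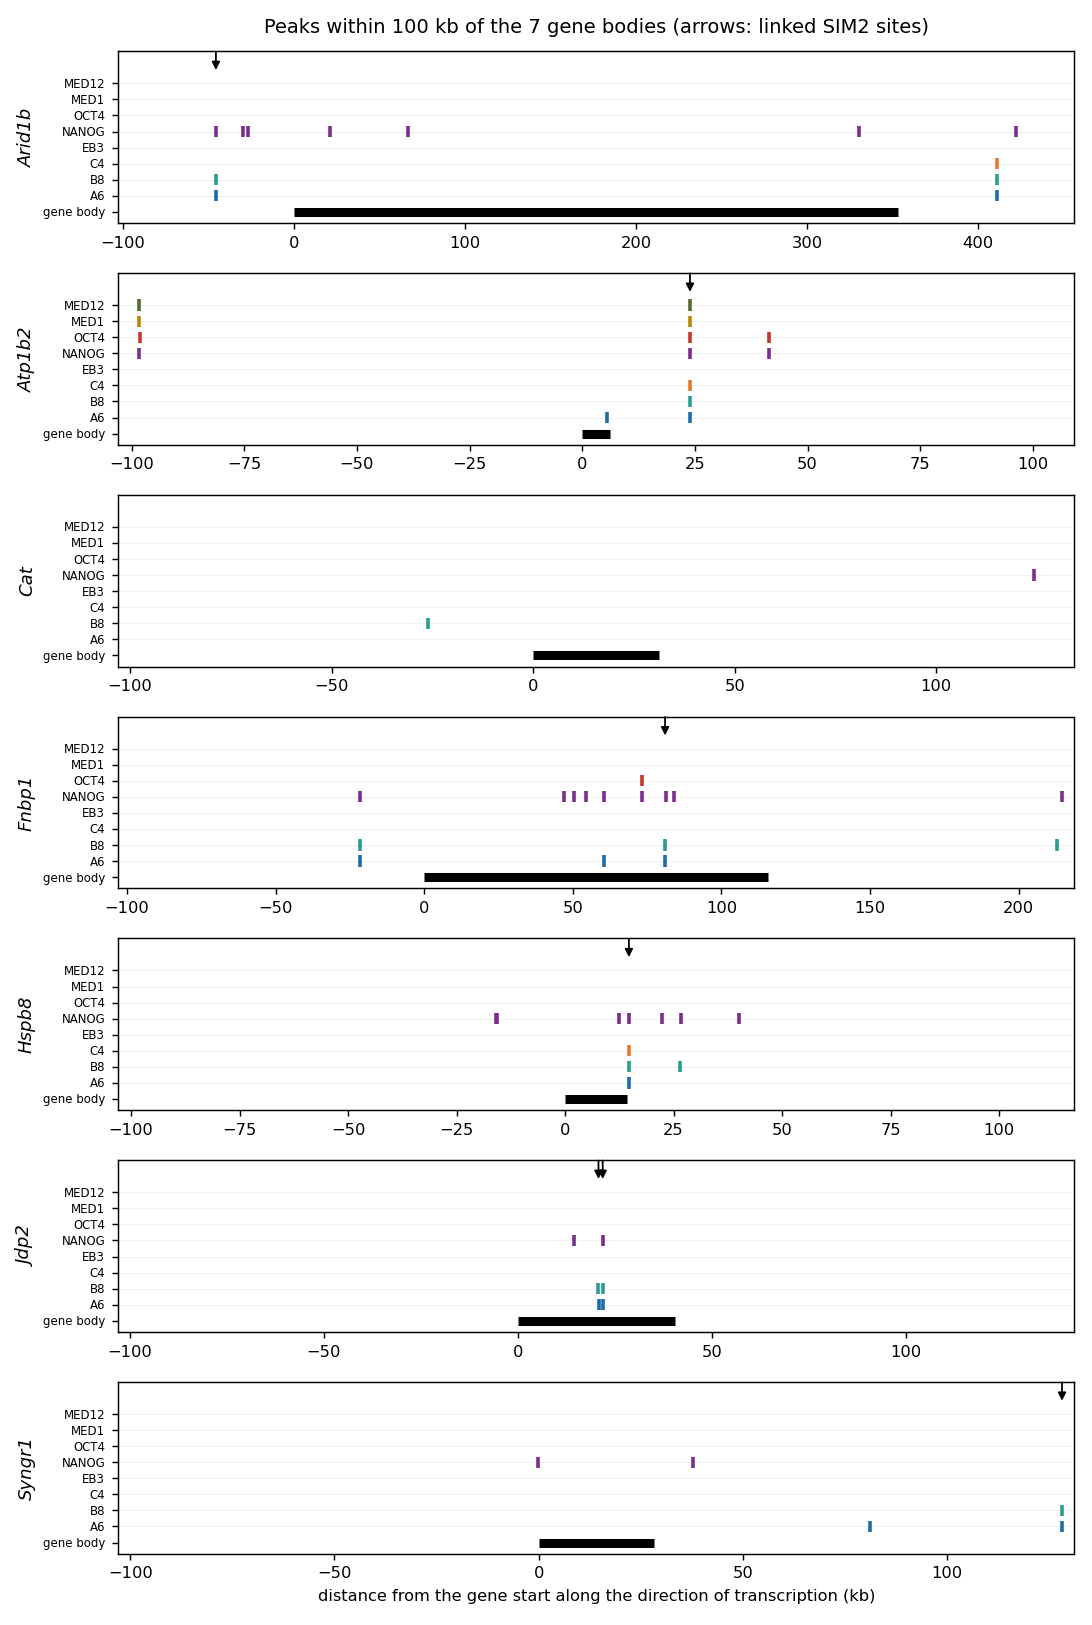
Peaks of the 8 lists (coloured ticks) against the distance from the gene start in kb (x axis, scaled separately for each gene), with the gene body as a black bar and arrows at the linked SIM2 sites. Cat has no arrow because both of its sites are on another chromosome, and NANOG peaks number from 1 (Cat) to 9 (Fnbp1).

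Factor peaks at the linked sites were counted within 100 bp, from the edge of the site to the edge of the peak. NANOG was found at 4 of 9 (44.4%, 95% Wilson interval 18.9 to 73.3%), where 82.0% of all SIM2 sites had a NANOG peak. OCT4 was at 1 of 9, where 46.2% of all sites had a peak, MED1 at 1 of 9 (12.0%) and MED12 at 1 of 9 (28.4%). The interval around 1 of 9 runs from 1.99 to 43.5%. Such intervals treat the 9 sites as independent, although the Jdp2 sites and the Cat sites are neighbouring pairs, so no difference was read from them. With OCT4 peaks of at least 8 times the input alone, OCT4 was still at 1 of 9, where 12.2% of all sites had such a peak, and NANOG was at 3 of 9, beside 67.0%. Sites linked to other genes had NANOG in 80.7%, OCT4 in 48.2%, MED1 in 25.9% and MED12 in 43.7% of 197 cases. No factor was found at 5 of the 9 linked sites, beside 16.7% of all SIM2 sites.

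The count for NANOG depended on the distance allowed. The median distance to the nearest NANOG peak was 448 bp over the 9 sites and 46 bp over all SIM2 sites. These distances run between centres. When presence was counted from edge to edge, as for the 100 bp above, a NANOG peak within 1000 bp was found at 8 of 9, beside 86.1% of all SIM2 sites. The eighth was Jdp2 site 1, whose centre lay 1127 bp from that of the NANOG peak. With 1 library for each factor and 9 sites of genes chosen for their SIM2 links, no test was made, and these differences describe the sites listed.

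**Figure D4:**
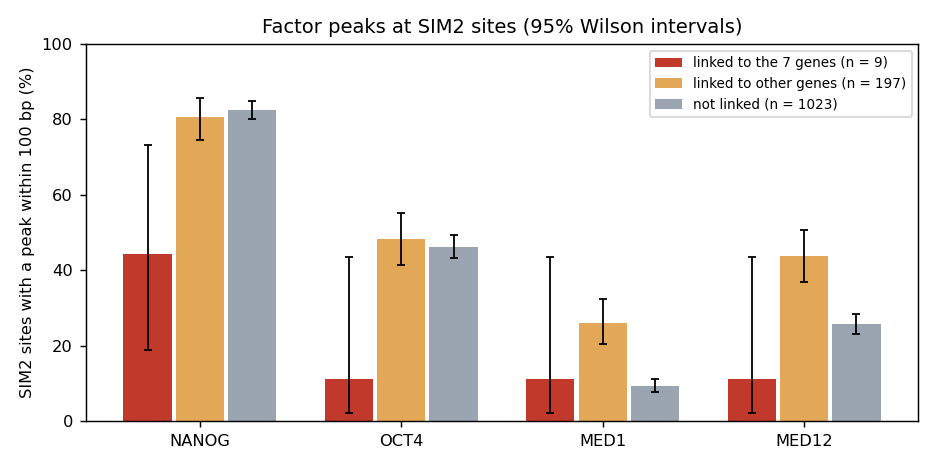
Share of SIM2 sites with a NANOG, OCT4, MED1 or MED12 peak within 100 bp (y axis, percent), for the 9 sites linked to the 7 genes, 197 sites linked to other genes and 1023 sites without a link. Bars are shares and lines 95% Wilson intervals for counting error only, and NANOG stands at 44.4%, 80.7% and 82.6%.

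**Figure D5:**
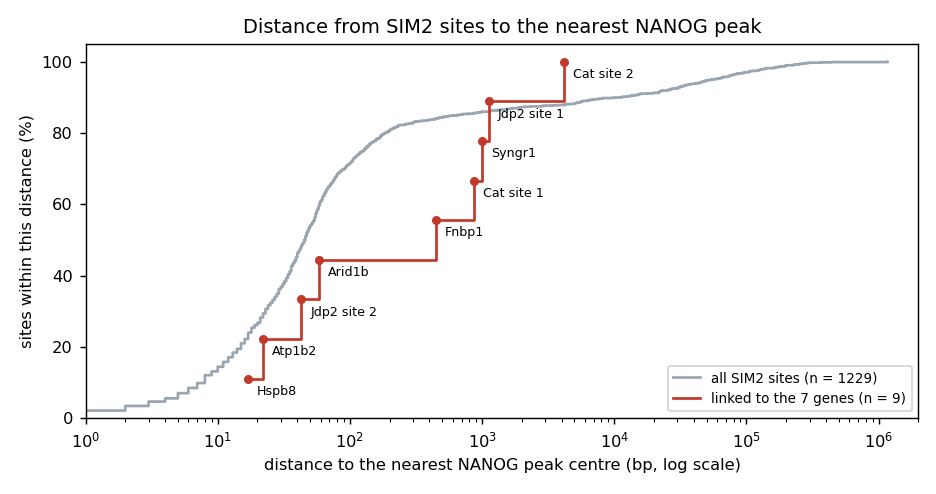
Share of sites (y axis, percent) within a given distance of the nearest NANOG peak centre (x axis, bp, log scale), for all 1229 SIM2 sites (grey) and the 9 linked sites (red, named). Of the linked sites, 4 lay within 58 bp, and the other 5 at 448 bp to 4189 bp.

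Read over the gene body and 100 kb on either side, 6 of the 7 genes had a SIM2 site in at least 2 clones, which 13.4% of protein-coding genes had, a count that the choice of the genes itself fixes. NANOG peaks were present around 7 of 7 genes, where 67.6% of protein-coding genes had one, with a median of 3 peaks beside 1. Of all SIM2 sites, 82.0% had a NANOG peak within 100 bp, so the NANOG counts are not independent of the choice of the genes. OCT4 was present around 2 of 7 (21.8%), MED1 around 1 of 7 (7.98%), MED12 around 1 of 7 (10.9%) and EB3 around 0 of 7 (1.14%). Single peaks of A6 were present around 6 of 7 (23.0%), of B8 around 7 of 7 (19.8%) and of C4 around 3 of 7 (6.06%), counts that the rule likewise used. The 7 genes have a median length of 31.3 kb, beside 15.4 kb over protein-coding genes, and longer genes have wider windows. Neighbouring peak centres within 100 bp were joined to 1 position. Of 40 such positions in these windows, 15 had a SIM2 peak, 31 a NANOG peak and 6 both. Peaks can overlap and still count as separate positions, as an A6 peak and a NANOG peak inside Fnbp1 did.

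The peaks just outside the rule were found in 1 clone only. There were 6 of them around the 7 genes, with 20 to 24 tags in A6 and 11 to 16 in B8, and folds over the input of 4.68 to 6.81. Some linked sites had values in these ranges. Cat site 2 had 22 tags in A6 and 11 in B8. In B8 alone, Jdp2 site 1 with 12 tags, the Syngr1 site with 14 and Cat site 1 with 16 were also within them. Their A6 peaks were higher, at 27, 28 and 43 tags.

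The families of the 7 genes were listed by name, with 107 relatives found in the annotation, and 21 of these relatives had a SIM2 site within 100 kb, beside 13.4% of protein-coding genes. In the BAF complex 6 of 29 genes had one (Arid1a, Arid1b, Arid2, Smarcc1, Ss18 and Ss18l1). Among the sodium-potassium ATPase subunits and their FXYD regulators it was 7 of 15, although genes that lie close together share sites, as Fxyd2 and Fxyd6 share 3. Among enzymes for hydrogen peroxide and superoxide it was 4 of 18 (Gpx3, Gpx4, Prdx6 and Sod1), without Cat. It was 3 of 21 F-BAR genes (Fcho1, Fnbp1 and Hmha1), 3 of 11 small heat shock genes with Bag3 (Hspb6, Hspb7 and Hspb8), 3 of 12 AP-1 genes (Fos, Jdp2 and Batf, where Batf has both Jdp2 sites in its window) and 1 of 8 synaptogyrin and synaptophysin genes (Syngr1). The 6 of the 7 genes counted in these lists were chosen for their SIM2 sites.

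Some relatives had a site close to the gene start or inside the gene. The site of Gpx4, which reduces lipid peroxides, lay 1179 bp upstream of its start, without a factor peak. The site of Fos, an AP-1 subunit, lay inside the gene 1554 bp from its start, again without a factor. Smarcc1, a core BAF subunit, had a site within the gene in all 3 clones (A6 percentile 93.0) with NANOG. The site shared by Fxyd2 and Fxyd6 with the highest A6 percentile, 97.3, was in all 3 clones and had NANOG, OCT4 and MED12. Arid2 had 2 sites upstream, of which 1 had NANOG.

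For each linked site the SIM2 site on another chromosome with the most similar percentiles over 7 lists was sought, as a Euclidean distance in percentile points. A list without a peak counted as percentile 0. The Syngr1 site had the same percentiles as a site 197179 bp from Emp1 (distance 0), both with peaks in A6 and B8 only. Tied values are common in these lists. Cat site 2 and the Fnbp1 site were close in value to the sites nearest to Svs2 (0.702) and Ankrd54 (1.01). The Arid1b site was most like the Hspb8 site (9.54), although only the latter had a C4 peak, at percentile 1.03. The Hspb8 site was most like a site near Prex1 (6.72), and Jdp2 site 1 like one near Lrtm1 (4.88). The sites most like Cat site 1, Jdp2 site 2 and Atp1b2 were further off in value. They are named by the nearest start, Tubb2b (13.8), Trim32 (14.1, with that start 234560 bp away) and Fat1 (16.6).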

How the data were processed

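The files are 8 HOMER peak lists of mouse ES cells. Per the labels and the methods, the authors used BWA (mm9) for mapping, dropped duplicate reads and ran peak calling per library against its input with HOMER. In the deposited lists the normalized tag count is a signal given by the authors, and outside A6 and EB3 it is not proportional to the total tags. The score is the number HOMER gave each peak in the deposited lists. Total tags are whole counts in 5 deposited lists, and were recovered from equal steps in A6, EB3 and OCT4, where they are not whole. The fold over the input is a ratio and stands beside its p-value in the deposited lists, which is not used here. In the lists other than A6 and EB3 the normalized tag count and the tags rank some peaks differently, and the cause is not given in the sources used here.

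Peak centres within 100 bp formed 1 site of 100 bp, those within 100 bp of an EB3 peak centre were dropped, and only those in 2 or more of the 3 clones (1 culture each) were used. A factor counted as bound at a site if a peak of its list came within 100 bp. Links came from the study's table of loops. Genes came from GENCODE vM1 on the same assembly, and the gene start is the 5′ end of the gene body. For the start nearest to a site, starts in between and promoters, the starts of single protein-coding transcripts were used. Sequence was read from that genome. Poisson and Wilson intervals cover counting error only.

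The members, the gene families and the rules were chosen with earlier results of these data known. The distance to the nearest NANOG peak was added after values were seen. Named were the 7 genes, the gene with the start nearest each site, genes with starts in between, family genes with a SIM2 site, and the most similar site to each linked site. Other peaks around the 7 genes were described from their windows. The tools were samtools 1.23.1, bedtools 2.31.1, pysam 0.24.0 and, in Python 3.11.15, scipy 1.17.1, pandas 2.3.3, statsmodels 0.14.6, matplotlib 3.10.9 and numpy 2.4.6. The steps were tested on simulated data, where 400 of 400 planted sites, 354 of 354 windows and 100 of 100 motifs were recovered. No sequence of chromosome 18 is shown.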

Additional observations from a re-analysis of the deposited data

How the results depend on the processing

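No paired analysis was made. The results are counts of sites and peaks without a test, and the input libraries have no peak list of their own here. Each ChIP is set against its input only through the fold in the deposited lists. Of 64 values recomputed under the alternatives, 47 stayed within the limits set and 17 moved. For counts of sites or member genes the limit was a fixed ratio to the main count. For shares over all annotated genes it was the Wilson interval of the main share, which is narrow with 22380 genes. With peaks of at least 8 times the input, 3 of the 9 linked sites were in at least 2 clones and 3 of the 7 genes had a SIM2 site, beside 3.24% of protein-coding genes. Leaving out 1 clone gave 3 to 9 linked sites and 3 to 6 genes, the lowest without A6 (replicate 1) and without B8 (replicate 2), since 6 of the sites have no C4 peak. The shares of protein-coding genes were then 4.46% without A6, 4.79% without B8 and 12.8% without C4. Allowing 1000 bp from edge to edge gave NANOG at 8 and OCT4 at 2 of the 9 sites, beside 86.1% and 49.6% of all SIM2 sites. With factor peaks of at least 8 times the input, MED1 was at 0 (1.95% of all sites) and MED12 at 0 (6.67%) of the 9, both at the Atp1b2 site otherwise, OCT4 stayed at 1 (12.2%), and 1 of the 7 genes had an OCT4 peak (3.15% of protein-coding genes). Over all 37310 annotated genes the shares with a peak nearby were lower, at 11.8% for SIM2 sites, 64.0% for NANOG, 20.3% for OCT4, 7.46% for MED1, 9.89% for MED12 and 0.933% for EB3. All of these shares are among the values counted as moved. Shallow libraries limit the readings, since a peak in B8 or C4 can rest on 11 tags.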
